A study of Mus musculus with 2 samples.

Results

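Branched-chain amino acid catabolism and its neighbouring transamination reactions were described through 9 genes, Bcat2, Bckdha, Bckdhb, Bckdk, Ppm1k, Glul, Got1, Got2 and Gpt2. They were chosen by name, as enzymes and regulators of this pathway, and not by a rule on their measured values, though earlier results of these data were known. All 9 had a row among the 55536 mouse genes of the deposited tables. Total RNA was sequenced from gastrocnemius, the large calf muscle, of adult female mice aged 8 to 10 months from a cross of the strains 5xFAD and CAST. As background, 5xFAD carries mutated human transgenes of familial Alzheimer's disease, driven by the Thy1 promoter, which is active mainly in neurons, and CAST is a wild-derived inbred strain. The labels give the strain as 5xFAD/CAST and state neither the parent of origin nor whether each mouse carried the transgenes. Both libraries belong to this 1 group, with no treatment named and no control strain, sex or tissue among the samples. The labels number them as biological replicates 1 and 2, with separate tissue samples but 1 donor identifier for both, so it is not settled whether they came from separate animals.

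Leucine, isoleucine and valine are broken down mainly outside the liver, and skeletal muscle holds much of the body's capacity for their first step. The mitochondrial aminotransferase BCAT2 moves their amino group to alpha-ketoglutarate, which gives glutamate and a branched-chain keto acid, and the branched-chain keto acid dehydrogenase complex (BCKDH) then decarboxylates the keto acid irreversibly. A kinase switches BCKDH off and a phosphatase switches it on, while alanine and aspartate aminotransferases and glutamine synthetase pass the nitrogen on to alanine, aspartate and glutamine, of which muscle exports alanine and glutamine.

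The libraries held 35594289 expected counts (library 1) and 34541905 (library 2), and the 9 genes took 0.169% and 0.151% of these. Levels are given as TPM, which scales reads by transcript length and then to a fixed total per library, in each library and as mean ± SD (n = 2), and a gene was counted as detected at TPM 1 or more in both libraries. With 2 libraries of 1 group, an exact two-sided sign-flip test cannot go below p = 0.5, so no gene was tested between libraries. Each sample was quantified by the authors in 2 ways, called the first and second quantifier, and values are from the first unless stated. The tissue label was checked against muscle fibre markers, of which all 8 were detected at mean TPM from 280 (Myh7) to 17981 (Acta1). Markers of adipocytes, endothelium, fibroblasts, macrophages, Schwann cells, smooth muscle and satellite cells had list medians from 1.15 to 13.3 TPM. The bulk tissue gives no way to tell fewer cells of a type from less RNA per cell.

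All 9 genes were detected, and their levels spanned 42.5-fold. The median of their mean TPM was 66.8, and 8 of the 9 lay above 7.95 TPM, the median of the 9793 detected nuclear protein-coding genes. The order from the highest to the lowest was Glul, Got1, Got2, Gpt2, Bckdk, Bckdha, Bcat2, Bckdhb and Ppm1k, and it was the same in both libraries. The genes that pass nitrogen on were thus all above the genes of branched-chain breakdown and its regulators. The values of neighbouring genes in this order did not overlap between libraries in any of the 8 neighbouring pairs, though the difference of 7.19 TPM between Bckdha and Bcat2 was under the SD of 7.27 TPM of Bcat2. The second quantifier gave the same order in both libraries, but there the ranges of Got1 and Got2, and of Got2 and Gpt2, overlapped.

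**Figure D1:**
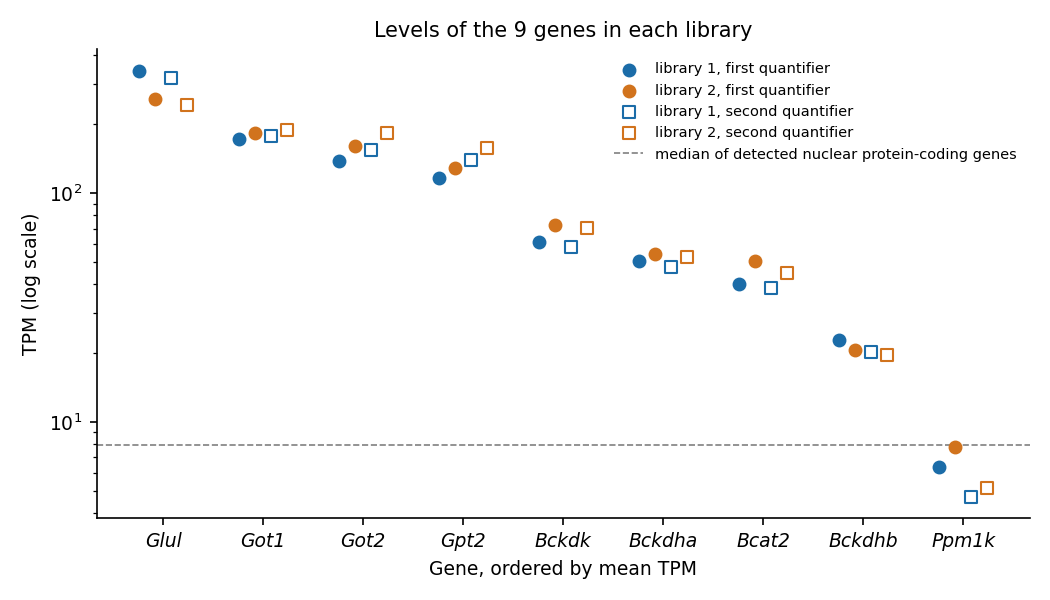
TPM of the 9 genes on a log axis, with filled circles for the first quantifier, open squares for the second, and one colour per library. Glul stands highest and Ppm1k lowest in both libraries and both quantifiers, and the dashed line marks the median of 7.95 TPM of detected nuclear protein-coding genes.

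Bcat2, the mitochondrial branched-chain aminotransferase (ENSMUSG00000030826.19, mm10 chromosome 7, 45570153 to 45589711, plus strand), stood at 40.01 TPM in library 1 and 50.3 TPM in library 2 (45.15 ± 7.27). These values come from 1739 and 1616 counts. Its cytosolic counterpart Bcat1 stood at 0.16 and 0.08 TPM, from 11 and 5 counts. Nearly all aminotransferase RNA for branched-chain amino acids was therefore that of the mitochondrial enzyme, with Bcat2 250-fold above Bcat1 in library 1 and 629-fold in library 2. The size of this ratio rests on few Bcat1 counts, and the second quantifier gave 112-fold and 371-fold.

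The transcripts of Bcat2 were the least settled of the 9 genes. In the first quantifier Bcat2-201 held 44.1% of the gene's TPM in library 1 and 16.9% in library 2, and Bcat2-202 held 36.3% and 45.0%. The leading transcript thus differed between the libraries. The second quantifier assigned next to nothing to Bcat2-202 and divided the RNA mainly between Bcat2-201, at 41.1% and 34.1%, and Bcat2-208, at 35.97% and 35.3%. Both annotated transcripts have 11 exons, of which 8 have the same bounds, and Bcat2-202 starts 220 bases further into the first exon. Within the coding part they differ at the start of exon 5, which begins at 45585111 in Bcat2-201 and at 45585126 in Bcat2-202. The stretch around this junction is shown because a read must cross it, or lie in the extra part of the first exon, to tell the isoforms apart there. It is read from the GENCODE M21 transcripts, 5′ to 3′ on the plus strand of mm10 chromosome 7, with 30 bases on either side of the variable part, and the capitals mark the 15 bases (5 codons) that only Bcat2-201 holds of these isoforms.
Bcat2-201: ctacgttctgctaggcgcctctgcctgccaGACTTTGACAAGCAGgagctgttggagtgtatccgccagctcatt
Bcat2-202: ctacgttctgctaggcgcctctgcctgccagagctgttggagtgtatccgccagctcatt
The gene level depended much less on this than the isoform shares did, with 38.6 and 44.7 TPM in the second quantifier. Bcat2 also overlaps the antisense gene 0610005C13Rik over 249 identical bases, and that gene had 1 count in each library.

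Bckdha and Bckdhb encode the alpha and beta subunits of the decarboxylase component of BCKDH, which pair in equal numbers in the enzyme. Bckdha (ENSMUSG00000060376.7, mm10 chromosome 7, 25629946 to 25658981, minus strand) stood at 50.4 TPM in library 1 and 54.3 TPM in library 2 (52.3 ± 2.78). Bckdhb (ENSMUSG00000032263.14, mm10 chromosome 9, 83925145 to 84124240, plus strand) stood at 22.9 and 20.6 TPM (21.7 ± 1.58). The RNA of the alpha subunit exceeded that of the beta subunit 2.20-fold in library 1 and 2.63-fold in library 2, and the second quantifier gave 2.35-fold and 2.69-fold. The log2 ratio of 1.27 ± 0.18 was several times its spread between libraries. Dbt, the transacylase core of the complex, was lower still at 13.6 and 14.2 TPM, so that Bckdha exceeded it 3.71-fold and 3.81-fold. Dld, the dehydrogenase that BCKDH shares with the pyruvate dehydrogenase complex, stood at 69.4 and 71.2 TPM. The RNAs of the complex were thus not at equal levels, and Dbt was the lowest of its 4 subunit genes in both libraries.

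Bckdha RNA was assigned to 1 transcript, Bckdha-201, at 100% in both libraries and both quantifiers. It overlaps B3gnt8 on the opposite strand over 490 identical bases, and B3gnt8 had 30 and 17 counts beside 2755 and 2569 for Bckdha. Bckdhb-201 held 91.9% of its gene's TPM in library 1 and 100% in library 2 by the first quantifier. The second gave it 54.9% and 38.3%, and in library 2 Bckdhb-206 led there with 61.7%. The isoform of Bckdhb is therefore not settled by these tables, while its gene level was 20.2 and 19.6 TPM in the second quantifier.

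Bckdk, the kinase that phosphorylates and inhibits BCKDH, was far above Ppm1k, the phosphatase that reverses this. Bckdk (ENSMUSG00000030802.14, mm10 chromosome 7, 127904082 to 127910221, plus strand) stood at 61.0 TPM in library 1 and 72.6 TPM in library 2 (66.8 ± 8.21). Ppm1k (ENSMUSG00000037826.5, mm10 chromosome 6, 57506502 to 57535468, minus strand) stood at 6.38 and 7.75 TPM (7.07 ± 0.969) and was the only one of the 9 genes below the median of detected nuclear protein-coding genes. Kinase RNA exceeded phosphatase RNA 9.56-fold in library 1 and 9.37-fold in library 2, a log2 ratio of 3.24 ± 0.021. The second quantifier gave 12.3-fold and 13.7-fold, since it placed Ppm1k lower, at 4.72 and 5.14 TPM. The ratio was alike in the libraries but differed between the quantifiers by more than between the libraries. Bckdk also exceeded its substrate subunit Bckdha, 1.21-fold and 1.34-fold.

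Of the 7 annotated Bckdk transcripts, Bckdk-202 led with 60.1% and 56.8% of the gene's TPM. Bckdk-203, a retained-intron transcript, held 18.2% and 20.04% in the first quantifier but 0% and 0.230% in the second, which gave 30.8% and 35.2% to Bckdk-204. Ppm1k-201 held 64.4% and 61.2% of its gene's TPM but 96.9% and 98.1% of its counts, and the rest went to short transcripts. Ppm1k-202, of 264 bases, held 20.8% and 38.8% of the TPM from 6.62 and 12.95 expected counts. In library 1 Ppm1k-203, of 640 bases, held 14.7% from 15.42 counts, and it had none in library 2. The level of Ppm1k in the first quantifier thus rests in part on very few reads of short transcripts.

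**Figure D2:**
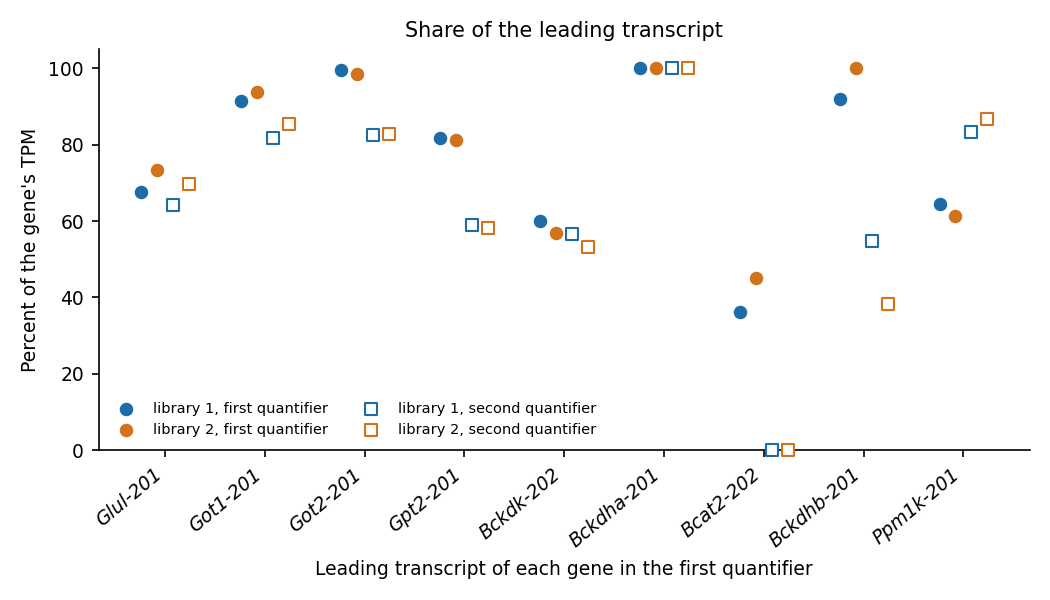
Percent of each gene's TPM held by the transcript that leads in the first quantifier, by library (colour) and quantifier (filled circles first, open squares second). Bckdha-201 stands at 100% throughout, Bcat2-202 at 36.3% and 45.0% stands at about 0 in the second quantifier, and Bckdhb-201 and Gpt2-201 stand lower there.

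Got1 and Got2 encode the cytosolic and mitochondrial aspartate aminotransferases, which also serve the malate-aspartate shuttle. Got1 (ENSMUSG00000025190.13, mm10 chromosome 19, 43499752 to 43524605, minus strand) stood at 172 TPM in library 1 and 182 TPM in library 2 (177 ± 7.23). Got2 (ENSMUSG00000031672.8, mm10 chromosome 8, 95864134 to 95888547, minus strand) stood at 138 and 160 TPM (149 ± 15.4). The cytosolic form exceeded the mitochondrial one 1.24-fold and 1.14-fold, and in the second quantifier 1.16-fold and 1.04-fold.

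Got2 has a near-identical copy. Got2-ps1, a processed pseudogene on mm10 chromosome 5 (138364260 to 138365552, minus strand), matches the whole coding sequence of Got2-201 over 1293 bases with 11 differences and no gap. The longest run without a difference is 315 bases, and 34.9% of the 1194 windows of 100 bases are identical in both. The window with the most differences is shown, from the GENCODE M21 transcripts, 5′ to 3′, with the 3 differing bases in capitals. It is the part of the aligned bases that differs most. Got2-201 has 2530 bases, and those outside the alignment have no counterpart in the annotated copy.
Got2-201: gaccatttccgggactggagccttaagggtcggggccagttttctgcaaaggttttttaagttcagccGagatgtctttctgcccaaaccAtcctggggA
Got2-ps1-201: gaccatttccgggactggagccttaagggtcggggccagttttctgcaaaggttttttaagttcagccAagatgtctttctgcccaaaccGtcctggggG
The first quantifier gave Got2-ps1 35.3 and 40.9 TPM, which was 11.1% and 11.2% of the counts of the copies together, and the second gave it 5.50% and 5.33%. Its short transcript gave it more TPM per count, 20.3% of the summed TPM in both libraries. The copy was added to Got2 in 2 ways, both chosen after seeing the data. With its counts at the TPM per count of Got2, Got2 stood at 156 and 180 TPM, and Got1 was 1.11-fold and 1.01-fold of it. With the TPM values summed, the total was 174 and 201 TPM, and Got1 was 0.991-fold and 0.907-fold of it. Got1 was thus the higher in both quantifiers and with pooled counts, and the lower only with summed TPM. Alleles of CAST were assigned against the mm10 reference, and whether they moved reads between Got2 and its copy was not tested. Of the other Got2 copies, 3 further processed pseudogenes had no count in either library. The lincRNA Gm10874 matches Got2-201 on the opposite strand at 98.8% over 1637 bases. It had 1 count in library 1 and 0 in library 2.

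Both aspartate aminotransferases stood below the malate dehydrogenases that work beside them in the shuttle. Got1 was at 0.824-fold and 0.721-fold of Mdh1, the cytosolic enzyme at 209 and 253 TPM. Got2 was at 0.450-fold and 0.441-fold of Mdh2, the mitochondrial enzyme at 308 and 364 TPM. Of the aspartate-glutamate carriers that complete the shuttle, Slc25a12 stood at 163 and 183 TPM, near Got1 and Got2, and Slc25a13 at 0.29 and 0.48 TPM. Slc25a12 exceeded Slc25a13 564-fold in library 1 and 382-fold in library 2, from 17 and 28 counts of Slc25a13, and the second quantifier gave 557-fold and 250.3-fold. The shuttle genes other than Slc25a13 all lay between a mean of 123 (Slc25a11, the malate carrier) and 336 TPM (Mdh2).

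Gpt2, the mitochondrial alanine aminotransferase, which makes alanine from pyruvate and glutamate, was far above its cytosolic counterpart Gpt. Gpt2 (ENSMUSG00000031700.11, mm10 chromosome 8, 85492576 to 85527560, plus strand) stood at 117 TPM in library 1 and 128 TPM in library 2 (123 ± 8.31), and Gpt at 12.3 and 13.5 TPM. The ratio was 9.53-fold and 9.54-fold, and the second quantifier gave 13.01-fold and 13.4-fold. Gpt2-201 held 81.7% and 81.2% of the gene's TPM in the first quantifier and 58.9% and 58.3% in the second. The rest went mainly to the non-coding Gpt2-205 and Gpt2-203, at 19.4% and 19.1% in library 1 by the second quantifier. By counts, which are not divided by length, Gpt2-201 held 95.6% and 95.7%. A processed pseudogene, Gm5049, matches Gpt2 at 90.2% over 1556 bases and had no count in either library.

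Glul, glutamine synthetase, which joins ammonia to glutamate, had the highest level of the 9 genes and the widest difference between libraries. It lies on mm10 chromosome 1 (ENSMUSG00000026473.15, 153899944 to 153909723, plus strand) and stood at 343 TPM in library 1 and 257 TPM in library 2 (300.2 ± 60.5). Among 22015 nuclear protein-coding genes it ranked 113 in library 1 and 195 in library 2. Gls2, the liver-type glutaminase, stood at 0.18 and 0.11 TPM. Glul was 6.65-fold and 5.27-fold above Glud1, the mitochondrial glutamate dehydrogenase, and the second quantifier gave 4.97-fold and 4.11-fold.

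Glul-201 held 67.6% and 73.3% of the gene's TPM and 95.02% and 96.2% of its counts. Glul-203, annotated at 379 bases, held 29.1% and 24.9% of TPM from 847 and 471 expected counts. The TPM of Glul thus rests in part on a short transcript with few of its counts, and Glul-201 alone stood at 232 and 189 TPM. Glns-ps1, a processed pseudogene of Glul on mm10 chromosome 11 (19720355 to 19721472), matches it at 96.8% over 1126 bases and had 298 and 204 counts, against 19960 and 13881 for Glul. A second processed pseudogene, AC134576.3, matches Glul at 93.0% over 1122 bases and had 139 and 123 counts in the first quantifier. Glns-ps1 thus held little of the RNA assigned to it and Glul, and with its counts added the log2 ratio between libraries was the same to 2 decimals.

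**Figure D3:**
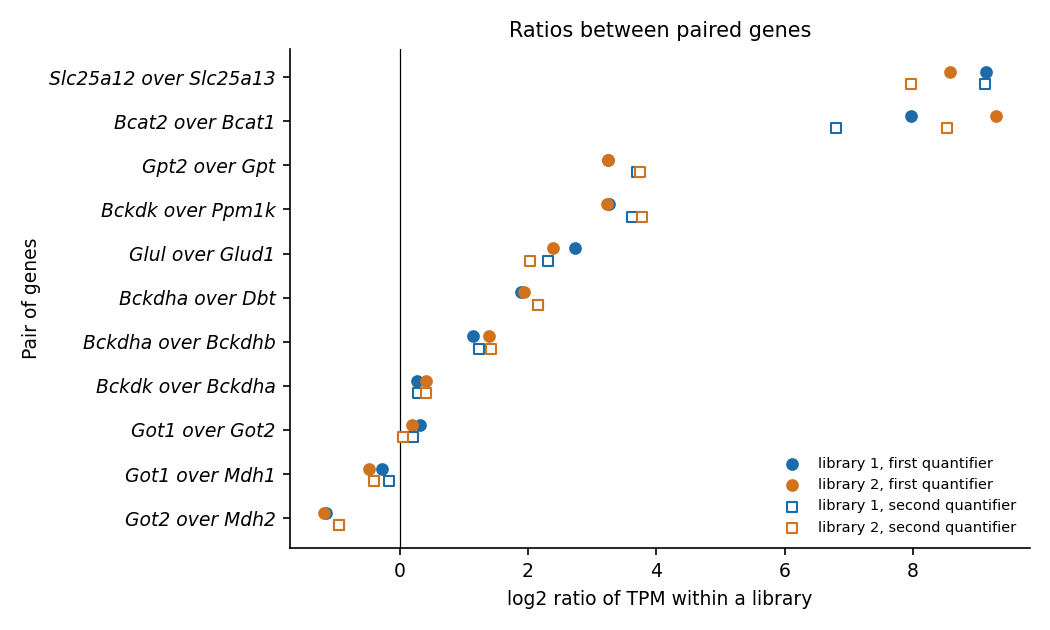
Ratios of TPM between paired genes within a library, on a log2 axis, by library (colour) and quantifier (filled circles first, open squares second). The first gene is the higher in both libraries in 9 of the 11 pairs, Got1 and Got2 lie close together, and the values for Bcat2 over Bcat1 and Slc25a12 over Slc25a13 lie far apart between libraries.

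The libraries were compared on rounded expected counts with the TMM scaling of edgeR, which trims extreme genes before it sets the library sizes, and with 95% Clopper-Pearson intervals that cover counting error only. Of the 10486 genes with a mean TPM of at least 1 and at least 100 counts in all, 3.33% differed by 1.5-fold or more, and none of the 9 genes did on this scale. Relative to the TPM of nuclear protein-coding genes only, chosen after seeing the data, Glul passed it, at -0.60. At a smaller difference of 0.32 on the log2 scale, which 12.8% of all genes passed, Glul was the only one of the 9. With so few genes, both counts are near these shares. On this scale 3 of the 9 were higher and 6 lower in library 2, with a median log2 ratio of -0.07, beside 0.00 over all compared genes. The interval held 0 for 5 of them, Bcat2, Bckdha, Bckdk, Ppm1k and Got2. It narrows with the counts, so that Gpt2, from 10738 and 10151 counts, left out 0 at a ratio of only -0.048. The share of all compared genes whose interval held 0 was not counted, so this split is no result about the 9.

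Glul was lower in library 2, with a log2 ratio of -0.49 (interval -0.52 to -0.46). Bckdhb, from 901 and 744 counts, had a ratio of -0.24 (-0.39 to -0.10). Among all compared genes 5.29% were as far apart as Glul and 21.1% as far apart as Bckdhb. These were the only ones of the 9 that were lower in library 2 in each of 8 settings, which were 7 scalings or filters and the second quantifier, with Glul between -0.60 and -0.41 and Bckdhb between -0.34 and -0.15. Some scalings shift all genes, and the median of all compared genes was -0.06 by spike-in counts, where all 9 were lower, and 0.17 in deposited TPM, where 7 were higher. Relative to that median, 6 of the 9 kept 1 direction throughout, with Glul, Bckdhb, Bckdha, Got1 and Gpt2 lower and Got2 higher. A scaling that shifts all genes alike cannot change a value relative to the median, so the 8 settings are not separate checks here. How many of all compared genes kept 1 direction, with or without the median taken off, was not counted, so these counts describe the 9 only. Values differed only between counts, TPM and the second quantifier, and Got2 was higher by only 0.023 to 0.039. Bckdk and Ppm1k were higher except in the second quantifier. Bcat2 was lower in counts and in the second quantifier but higher by 0.16 in both TPM scalings.

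Other RNAs also differed between the libraries, some lower in library 2 as Glul was and some higher. The liver markers Alb, Apoa1 and Ttr together had 306 counts in library 1 and 2 in library 2, with Alb at 254 and 0 counts, and none of the 3 was detected in both libraries. Their summed level was 6.06 and 0.08 TPM. All 4 macrophage markers that could be compared were lower in library 2, with a median log2 ratio of -0.41 and a summed level of 25.7 and 23.3 TPM over the 6 markers, of which Adgre1 and Cd68 lay below TPM 1 in both libraries. All 3 compared Schwann cell markers were lower too (median -0.31, summed level 25.3 and 24.8 TPM), with Sox10 and S100b below TPM 1 in both libraries. Of the 5 fibroblast markers 3 were higher and 2 lower (median 0.14, summed level 139 and 159 TPM). Col1a1 and Col3a1, of fibrillar collagen, were each higher by 0.49 and Lum by 0.14, while Pdgfra was at -0.34 and Dcn at -0.09. Of the 8 muscle fibre markers 6 were higher and 2 lower (median 0.05), with Myh7, the slow myosin heavy chain, higher by 0.32. Of the compared endothelial markers 4 of 5 were lower (median -0.10), and of the smooth muscle markers 4 of 4 (median -0.06). Of the compared satellite cell markers 2 of 2 were lower (median -0.13), and of the adipocyte markers 3 of 5 (median -0.01). The part of these RNAs in the difference of Glul was not tested.

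**Figure D4:**
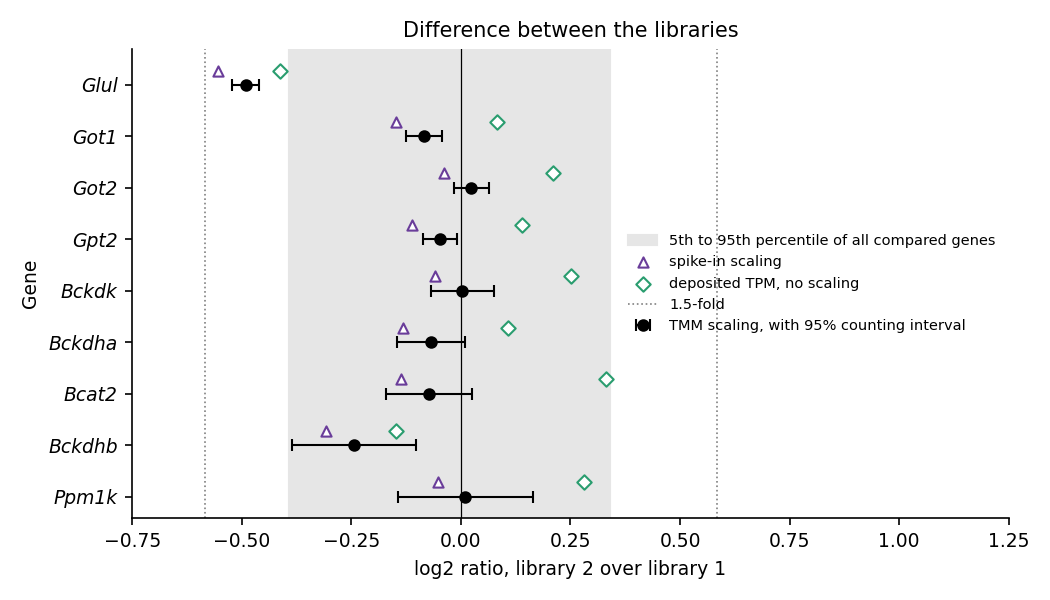
Difference of each of the 9 genes between libraries, as log2 of library 2 over library 1, with the TMM-scaled value and its 95% counting interval (black) and the values by spike-in counts (triangles) and deposited TPM (diamonds). Glul at -0.49 lies below the grey band from -0.39 to 0.34 that holds the central part of all compared genes, and the other 8 lie inside it.

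The surrounding pathway was read through 60 further genes on lists drawn up by function. Of these 60 genes, all protein-coding, 49 were detected and 10 were below TPM 1 in both libraries. Beside this, 9793 of 22015 nuclear protein-coding genes were detected, and 19.2% of all 55536 genes, which include many non-coding ones. The steps beyond BCKDH were all detected: 5 of 5 genes of the leucine branch, 8 of 8 of the isoleucine and valine branches and 6 of 6 of the propionyl-CoA branch. In the leucine branch Ivd, isovaleryl-CoA dehydrogenase, led at 59.2 and 66.5 TPM and Auh, which hydrates methylglutaconyl-CoA, followed at 28.1 and 32.7. The isoleucine and valine branches reached the highest level of the branches. Acadsb, the short branched-chain acyl-CoA dehydrogenase, stood at 75.3 and 72.5 TPM and Echs1, the enoyl-CoA hydratase, at 57.3 and 56.5. Mcee, methylmalonyl-CoA epimerase, stood at 37.4 and 36.4 TPM and Mut, methylmalonyl-CoA mutase, at 28.4 and 32.9. All genes of these branches lay below Gpt2, with means between 7.25 (Mmaa, which serves methylmalonyl-CoA mutase) and 73.9 TPM (Acadsb).

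The 10 genes below TPM 1 included aminotransferases, transporters and counterparts of detected enzymes. Of the aminotransferases, Got1l1 and Agxt2 had no count in either library, which allows up to 0.0843 CPM (counts relative to the library's total) in library 1 and 0.0869 CPM in library 2, and Psat1, of serine synthesis, stood at 0.34 and 0.71 TPM. Oat, ornithine aminotransferase, was detected at 77.7 and 74.7 TPM. Asns, which makes asparagine, stood at 0.77 and 0.64 TPM. Among transporters Slc7a5, the light chain of a carrier of large neutral amino acids, stood at 0.51 and 0.48 TPM and Slc38a1 at 0.56 and 0.51. Sesn2, a leucine sensor upstream of mTORC1, stood at 0.83 and 0.82 TPM. The others below TPM 1 were Bcat1, Gls2 and Slc25a13.

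The transporters that were detected were moderate beside the enzymes. Slc38a2, a sodium-coupled carrier of small neutral amino acids, led at 30.3 and 24.3 TPM, followed by Slc38a3, a glutamine carrier, at 18.4 and 18.8. Of the ammonia-producing purine nucleotide cycle, Ampd1, the muscle AMP deaminase, stood at 484 and 582 TPM and Adssl1, the muscle adenylosuccinate synthase, at 355 and 439, both above Glul in both libraries. Among regulators Atf4, the factor of the amino acid response, stood at 54.0 and 56.9 TPM, and Tfeb, of lysosome genes, at 39.98 and 48.6.

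Of the 49 detected and compared pathway genes that are not among the 9, none was higher by 1.5-fold in library 2 and 2 were lower, beside 3.33% of all genes in either direction. Slc43a1, a carrier of branched-chain amino acids, had 729 and 389 counts, a log2 ratio of -0.87 (-1.05 to -0.69). Foxo1, a transcription factor of the fasting response, had 3533 and 1690 counts, a ratio of -1.03 (-1.12 to -0.95). Past 0.32 on the log2 scale 3 more were lower, which are named here because of their values: Klf15, a regulator of branched-chain catabolism, at -0.53, Slc38a2 at -0.50 and Foxo3 at -0.35. That makes 5 of 49, beside 12.8% of all genes in either direction and 7.11% lower, so the count is near the background. All 5 were lower in library 2 in each of the 8 settings, several of which only shift all genes alike. Since the 5 were picked as lower by TMM on the same counts, this is not a separate check. How many of all compared genes stayed lower in each setting was not counted. Foxo3 ranged from -0.41 to -0.09 and Slc38a2 from -0.56 to -0.319, so at their smallest both fell short of 0.32. The marker lists given beside Glul differed between the libraries too, in both directions, and their part was not tested.

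**Figure D5:**
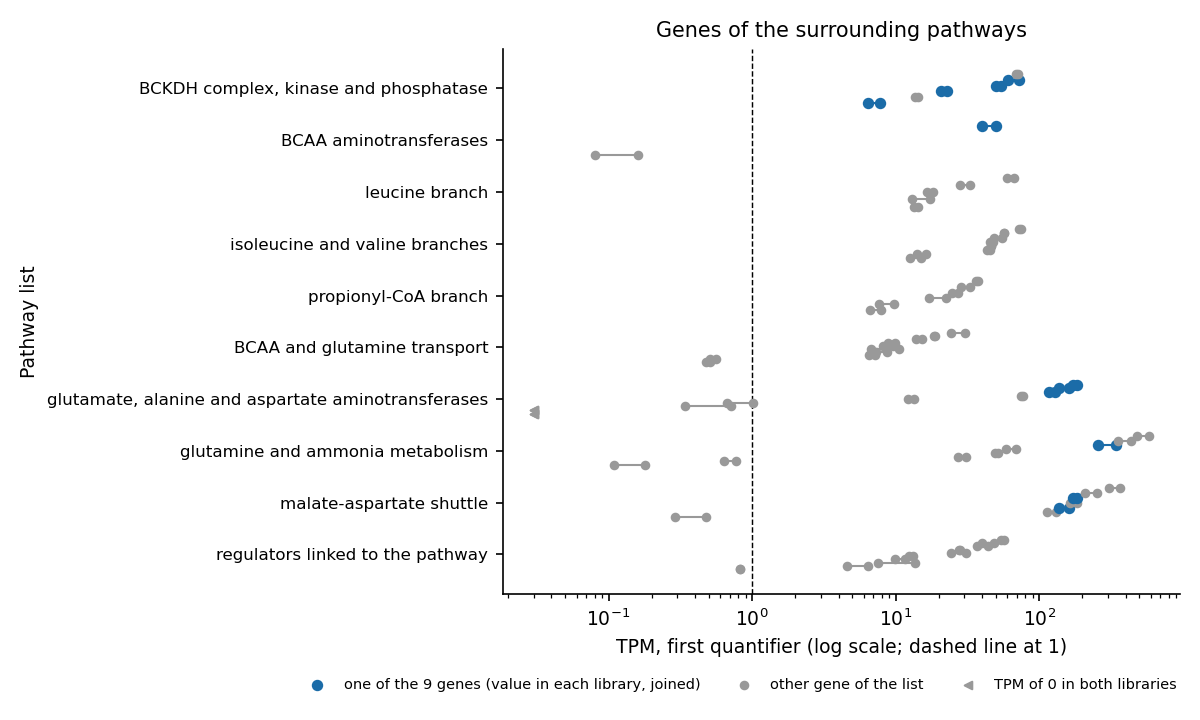
TPM of every listed pathway gene in both libraries (joined points, log axis), by list, with the 9 genes in blue and the others in grey. Genes left of the dashed line at TPM 1 include Bcat1, Slc25a13 and Gls2, and triangles at the left edge mark Got1l1 and Agxt2, which had no count.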

How the data were processed

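The authors' deposited gene and transcript tables were used as given; the tools that made them are not given in the sources used here. Per the file headers, the first quantifier's tables have the columns RSEM writes and the second's those kallisto writes. Per the deposited read-me, both use mm10 and GENCODE M21. Expected counts (first) and estimated counts (second) in the deposited tables share ambiguous reads among genes. Deposited TPM is relative to every entry of a table, with spike-ins, so an abundant RNA moves all other values. The percent of a gene held by each transcript was deposited by the authors and recomputed here from TPM. The posterior SD of the count, another deposited column, was read for Got2 and its copy only and is not printed. Second-quantifier gene values are sums over transcripts, and 86 genes without a row there were set to 0. Genes numbered 55536; 96 spike-ins and 26249 other entries were left out.

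For ratios between libraries, expected counts were rounded to integers and scaled by TMM (edgeR 4.0.16) over 11577 genes with at least 1 CPM in both libraries. DESeq2 1.42.0 size factors, spike-in counts, total counts, deposited TPM, no filter and the second quantifier were alternatives; TPM over nuclear protein-coding genes for these ratios, and copies added to Got2 and Glul, were alternatives chosen after seeing the data. Ratios between genes within a library used TPM with a pseudocount of 0. Copies were searched with blastn 2.17.0 among GENCODE M21 transcripts (at least 85% identity over 400 bases, or 100% over 200). Ratios and intervals were tested on simulated counts with known folds and counting (Poisson) error only. That test cannot show whether the intervals suit these data, where ambiguous reads are shared among genes. PCR reads without molecular identifiers are not independent molecules, so intervals and the floor of 3 counts cover counting error only. The directional kit marks strand, but whether the counting used it is not given.

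The 9 genes, lists, pairs and thresholds were chosen with earlier results of these data known. Named were each of the 9, pair partners, and of each list the 2 other genes with the highest mean TPM, those below TPM 1 in both libraries and those past 1.5-fold. Klf15, Foxo3, Mmaa, Slc25a11 and the single marker genes were named after their values were seen. No gene was named for likeness to another, since 2 libraries of 1 group give no pattern. Of the pairs and listed genes, 1 is not reported here. Listed Mmut was found as Mut, and Adss1 is the listed Adssl1.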

Additional observations from a re-analysis of the deposited data

How the results depend on the processing

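The number of the 9 genes detected (9) and of all listed pathway genes detected (58 of 69) stayed within 1.5 times at TPM 0.5, at TPM 5 and in the second quantifier. Relative to nuclear protein-coding genes only, the median of the 9 genes was 159 TPM in place of 66.8, since the total is smaller. Leaving out each replicate in turn gave a median from 61.0 to 72.6 TPM, and 9 of 11 pairs with the first gene higher in each case. In deposited TPM the median log2 ratio between libraries of the 9 genes was 0.14 in place of -0.07, with Got1 at 0.083 and Gpt2 at 0.138 in place of -0.085 and -0.048; all compared genes shift by 0.17 there. No gene of the 9 passed 1.5-fold by TMM (with or without the filter), DESeq2 size factors, spike-in counts, total counts, deposited TPM or the second quantifier. In TPM relative to nuclear protein-coding genes, added after seeing the data, 1 did, Glul at -0.60. With TMM 1 passed 0.32 on the log2 scale, and in deposited TPM Bcat2 at 0.33 passed it as well as Glul. With Got2-ps1 added, the log2 ratio of Got1 over Got2 was -0.077 (summed TPM) or 0.080 (pooled counts) in place of 0.251, and 8 or 9 pairs had the first gene higher. The second quantifier moved the level of 4 of the 9 genes, 7 of 11 pair ratios and 7 of 9 leading-transcript shares by more than their SD between libraries; the cause was not tested. Ratios between libraries have no value without a replicate. No paired analysis was possible because there is only 1 group. Depth limits Bcat1, Slc25a13 and Gls2, which had under 30 counts in each library, more than the 9 genes, which had at least 1399 counts each over both libraries.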
